A study of Homo sapiens with 9 samples.

Results

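A set of 10 genes of the BCL2 family, which sets the threshold for mitochondrial apoptosis, were followed in MDA-MB-231 cells, an established human breast cancer line without hormone receptors. They were chosen by name, and all 10 were found among the 58219 genes of the files: the pro-survival genes BCL2, BCL2L1, MCL1 and BCL2A1, the pore-forming effector genes BAX and BAK1, and the BH3-only genes BID, BBC3, PMAIP1 and BCL2L11. RNA was sequenced from 9 libraries in 3 groups of 3. The shAPT1 cells carried a lentiviral short hairpin RNA against APT1 and had been selected with puromycin. The APT1wt cells carried a lentivirus that overexpresses wild-type APT1, and the control cells carried a lentivirally delivered scrambled RNA. APT1, encoded by LYPLA1, is an acyl-protein thioesterase that removes palmitate from proteins. All 3 groups had therefore been transduced, and no overexpression control with an empty vector is among the 9 libraries, so that in APT1wt the vector and the gene cannot be told apart. In shAPT1 the reduction of APT1, other effects of the hairpin and the puromycin selection cannot be told apart either. The labels give no hairpin sequence and do not say whether the cells were clones or pools. Nor do they state whether each library was grown as its own culture, and all p-values therefore rest on library-to-library spread that could be technical in origin.

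As background, pro-survival BCL2 proteins hold BAX and BAK1 in check at the outer mitochondrial membrane. BH3-only proteins, made or activated under stress, bind the pro-survival proteins or the effectors directly, and freed BAX and BAK1 then form pores that release cytochrome c. Many of these proteins are also controlled after transcription: MCL1 and NOXA turn over quickly through the proteasome, and BID is cut by caspase-8. RNA levels therefore describe only part of the system.

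The genome sequences that bear on the transcript results below are given first, each written 5′ to 3′ in the direction of transcription. MCL1 and BCL2L1 each encode a long pro-survival form and a shorter form that lacks anti-apoptotic activity, and the forms differ in how the coding exons are joined. In MCL1 the short form omits a block of 248 bases on chromosome 1, from 150578244 to 150578491 on the minus strand of GRCh38, a length that is not a multiple of 3 and so shifts the reading frame. In BCL2L1 the short form uses an earlier splice site and omits 189 bases on chromosome 20, from 31721655 to 31721843 on the minus strand, a multiple of 3 that keeps the frame. The junctions are shown as 24 bases from each side, from the GENCODE 29 transcripts, with the exon after the junction in capitals.
MCL1 long form, entry into the block: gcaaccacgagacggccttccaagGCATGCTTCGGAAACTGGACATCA
MCL1 long form, exit from the block: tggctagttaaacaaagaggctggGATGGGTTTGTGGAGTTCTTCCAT
MCL1 short form, block omitted: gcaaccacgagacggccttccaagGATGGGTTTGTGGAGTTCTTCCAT
BCL2L1 long form: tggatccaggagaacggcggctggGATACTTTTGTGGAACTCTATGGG
BCL2L1 short form: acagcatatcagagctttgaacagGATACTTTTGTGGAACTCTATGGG

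PMAIP1 and BAX were the members whose summed reads differed from control in both shAPT1 and APT1wt, and the 250 bases before the start of each, as RefSeq places it, are shown for that reason, from the RefSeq promoter table on GRCh38.p14. That table held a promoter for 9 of the 10 genes, and for each of these both strands of the 250 bases were searched for TGACG, the core of cyclic AMP and ATF response elements, CACGTG, an E-box, GGGCGG, a GC box, and CCAAT. The PMAIP1 sequence lies on chromosome 18 from 59899746 to 59899995 on the plus strand, with its single TGACG match and its 4 GGGCGG matches in capitals, on either strand. TGACG occurred in 21.2% and GGGCGG in 42.6% of 35116 windows of this length.
PMAIP1 promoter: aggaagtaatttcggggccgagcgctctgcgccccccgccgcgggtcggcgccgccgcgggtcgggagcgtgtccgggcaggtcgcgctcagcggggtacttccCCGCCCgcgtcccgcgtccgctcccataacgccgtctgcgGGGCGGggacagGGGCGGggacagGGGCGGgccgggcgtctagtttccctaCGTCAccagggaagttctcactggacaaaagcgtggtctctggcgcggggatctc
The BAX sequence lies on chromosome 19 from 48954625 to 48954874 on the plus strand, with its 4 CACGTG matches in capitals, a motif present in 6.34% of the windows.
BAX promoter: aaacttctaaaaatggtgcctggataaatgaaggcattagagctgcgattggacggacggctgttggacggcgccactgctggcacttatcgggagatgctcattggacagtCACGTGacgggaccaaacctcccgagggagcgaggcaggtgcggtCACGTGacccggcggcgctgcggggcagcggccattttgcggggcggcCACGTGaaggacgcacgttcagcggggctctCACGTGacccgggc
The BAX window also held 1 TGACG match, which overlaps the first CACGTG, 1 GGGCGG and 2 CCAAT matches. The percentages count windows with at least 1 match. The motifs were not particular to PMAIP1 and BAX. Among the other members CACGTG occurred in BBC3 and 2 of 5 BID windows, and TGACG in BCL2 and 1 of 2 BCL2L1 windows. GGGCGG occurred in BAK1, BCL2L11 and 4 of 5 BID windows, with up to 4 matches in BID. No binding was measured here, and a match is a description of letters only.

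LYPLA1 was read first, as a check on the labels. Its level was 38.2, 30.5 and 36.7 TPM in the shAPT1 libraries. In the APT1wt libraries it was 169, 171 and 170 TPM, against 87.1, 92.7 and 80.5 TPM in control, so each group went with its label. TPM, the authors' unit, is a transcript's share of a library corrected for its length. Depth was 12381931 to 18667383 estimated reads. Of the markers of this line VIM, the gene of vimentin, stood at 1801 to 2373 TPM, while the hormone receptor genes ESR1 and PGR did not pass 0.219 and 0.0565 TPM. ERBB2, EPCAM and CDH1 had also been listed as low or absent. CDH1 stood at 0.383 to 2.76 TPM, but EPCAM stood at 7.42 to 10.9 TPM and ERBB2 at 27.5 to 37.3 TPM. The sum of 8 leukocyte markers was 67.9 to 88.8 TPM in shAPT1 and 70.5 to 99.3 TPM in APT1wt, against 105 to 132 TPM in control. Nearly all of it was CD68, also a lysosomal gene, while the other 7 summed to at most 1.32 TPM in any library, with MS4A1 at 0 in all 9, and the part of CD68 in the results was not tested. Sums over 3 fibroblast and 3 endothelial markers did not pass 0.587 and 1.25 TPM. In bulk RNA, fewer cells of a type and less RNA per cell cannot be told apart. The shAPT1 libraries were not alike. In replicates 1, 2 and 3, IL6 stood at 46.8, 9.97 and 10.7 TPM and CXCL8 at 138, 22.6 and 22.8 TPM, so some results below are also given without replicate 1.

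The 10 genes covered a wide range of levels, and their order was nearly fixed across the 9 libraries. BCL2L1, which encodes the pro-survival protein Bcl-xL, was the most abundant member in every library, at 179 to 229 TPM with a median of 192 TPM. BAX followed at 127 to 179 TPM and MCL1 at 112 to 149 TPM. BAX exceeded MCL1 in 7 of 9 libraries, and their ranges overlapped. BID and PMAIP1 came next, at 37.1 to 69.3 TPM and 46.0 to 105 TPM, and were followed by BAK1 at 26.6 to 35.3 TPM. BCL2L11 stood at 9.14 to 15.0 TPM, BCL2 at 4.21 to 6.40 TPM and BBC3 at 0.891 to 2.37 TPM. BCL2A1 was at or near the limit of detection. The order of BID and PMAIP1 differed between the groups: PMAIP1 exceeded BID in the 3 shAPT1 libraries, and BID exceeded PMAIP1 in the 3 APT1wt and the 3 control libraries.

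**Figure D1:**
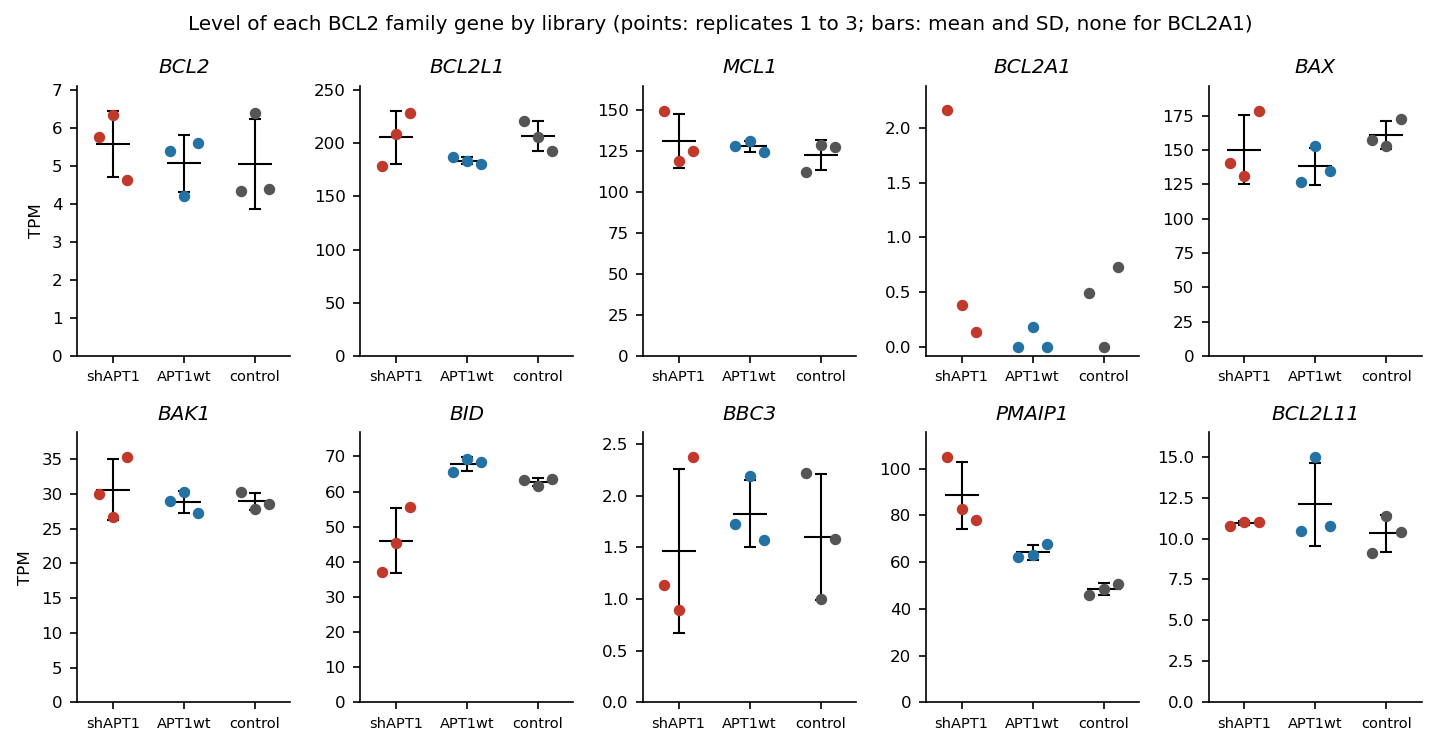
Level of each of the 10 genes in TPM (vertical axis, starting at 0, or just below it for BCL2A1) in the 3 libraries of shAPT1, APT1wt and control, with replicates 1 to 3 from left to right in each group and bars for the mean and SD except for BCL2A1. PMAIP1 is highest in shAPT1 and lowest in control with no overlap between any groups, and BID is lowest in shAPT1; the remaining panels overlap in at least 1 pair of groups.

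The comparison of shAPT1 with control asked how the family differs where LYPLA1 RNA is reduced but not absent, at a mean of 35.1 TPM against 86.8 TPM in control. PMAIP1 rose, BID fell and the summed reads of BAX fell, which made 3 of the 9 members tested, beside 24.4% of the 15233 genes tested in this comparison; this share is close to that of genes at large. The other 6 did not pass, and BCL2A1 had too few reads to be tested. The log2 fold changes of the 9 members had a median of -0.07, against a median of -0.0039 for all tested genes. Members whose TPM did not overlap between the groups numbered 2 of 10, with 31.1% of all tested genes meeting the same criterion. All tests were edgeR quasi-likelihood fits of the gene counts with Benjamini-Hochberg adjustment over all genes, called at an adjusted p of at most 0.05, and log2 fold changes are given ± SE.

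PMAIP1 encodes NOXA, a BH3-only protein that binds MCL1 and promotes its degradation. It lies on chromosome 18 from 59899948 to 59904306 on the plus strand. It stood at 105, 82.9 and 78.1 TPM in the shAPT1 libraries, against 46.0, 48.6 and 50.8 TPM in control. Each shAPT1 library was above each control library, and shAPT1 replicate 1 was the highest. The change was 1.77-fold, or 0.82 ± 0.09 on the log2 scale (adjusted p = 1.8e-05), higher in 3 of 3 libraries. Without shAPT1 replicate 1 it was 0.72 with an adjusted p of 3.9e-06.

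BID encodes the BH3-only protein that links death receptors to mitochondria once caspase-8 has cut it, and lies on chromosome 22 from 17734138 to 17774770 on the minus strand. It stood at 37.1, 45.2 and 55.7 TPM in shAPT1, against 63.3, 61.5 and 63.6 TPM in control. Again the groups did not overlap, and by TPM replicate 1 was here the lowest of the shAPT1 libraries. TPM is divided by the mean effective length, the average over the transcripts weighted by their abundance. For BID this was 1524, 1154 and 1077 nt in shAPT1, against 1022, 1191 and 1159 nt in control. The place of replicate 1 among the shAPT1 libraries therefore depends on its length as well as its reads. The log2 fold change was -0.39 ± 0.08 with an adjusted p of 0.0019, lower in 3 of 3 libraries, and -0.38 without replicate 1. With an offset for the average transcript length of each library it was -0.51 (adjusted p = 0.012).

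BAX encodes an effector that forms the mitochondrial pore, and lies on chromosome 19 from 48954815 to 48961798 on the plus strand. By summed reads its log2 fold change in shAPT1 was -0.34 ± 0.07 with an adjusted p of 0.0037. The length-corrected levels overlapped, however, at 141, 131 and 179 TPM in shAPT1 against 158, 153 and 173 TPM in control, and 1 shAPT1 library was above all 3 controls. With an offset for the average transcript length of each library the log2 fold change was -0.17 (adjusted p = 0.33), and on log2(TPM + 0.5) it was -0.11 (adjusted p = 0.56). The mean effective length of BAX, the average over its transcripts weighted by their abundance, was 588 ± 50 nt in shAPT1 and 659 ± 48 nt in control (SD, n = 3 each).

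Among the pro-survival genes, BCL2L1 stood at 179, 209 and 229 TPM in shAPT1, against 221, 206 and 192 TPM in control, with the shAPT1 libraries spread across the whole control range. Its log2 fold change was -0.07 ± 0.09, with a 95% interval from -0.28 to 0.13. MCL1, whose short-lived product is a partner of NOXA, stood at 149, 119 and 124 TPM in shAPT1, against 112, 128 and 127 TPM in control. Only shAPT1 replicate 1 lay above the controls, and the log2 fold change of MCL1 was 0.01 ± 0.07 with an interval from -0.14 to 0.17. Without that library the values were 0.04 for BCL2L1 and -0.08 for MCL1, neither past the threshold (adjusted p = 0.76 and 0.29). BCL2, the founding member of the family, stood at 5.76, 6.35 and 4.62 TPM in shAPT1, against 4.33, 6.40 and 4.40 TPM in control. Its log2 fold change of -0.15 ± 0.10 did not pass (adjusted p = 0.29) and turned to 0.10 with the transcript length offset.

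BAK1, the second effector, stood at 30.0, 26.6 and 35.3 TPM in shAPT1, against 30.3, 27.9 and 28.6 TPM in control, a log2 fold change of 0.01 ± 0.09. BCL2L11, which encodes the BH3-only protein BIM, stood at 10.8, 11.0 and 11.0 TPM in shAPT1, against 9.14, 11.4 and 10.4 TPM in control, a change of 0.08 ± 0.09. For both genes the groups overlapped. BCL2L11 overlaps the span of MIR4435-2HG, a gene on the opposite strand at 184 to 237 TPM. A strand setting is not given in the sources used here. Whether exons of the pair overlap was not examined, so it is not known whether any reads could be shared. BBC3 encodes PUMA, a BH3-only protein that p53 induces. Its 11, 14 and 27 reads in shAPT1, against 32, 12 and 21 in control, gave -0.55 ± 0.37 (adjusted p = 0.31), and the interval from -1.34 to 0.24 spans a wide range of changes at this depth.

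BCL2A1, which encodes the pro-survival protein BFL1, had 14, 3 and 1 reads in shAPT1 and 0, 1 and 0 in APT1wt, against 3, 0 and 6 in control. Most of the shAPT1 reads came from replicate 1. A count of 0 allows up to 0.171 and 0.161 RPM (reads scaled to library size) in APT1wt replicates 1 and 3 and 0.242 RPM in control replicate 2, for counting error only. Below the filter on low counts, it was tested only in the fit without that filter, where shAPT1 was higher than APT1wt (adjusted p = 0.0032) and neither differed from control past the threshold (adjusted p = 0.61 in shAPT1 and 0.086 in APT1wt).

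**Figure D2:**
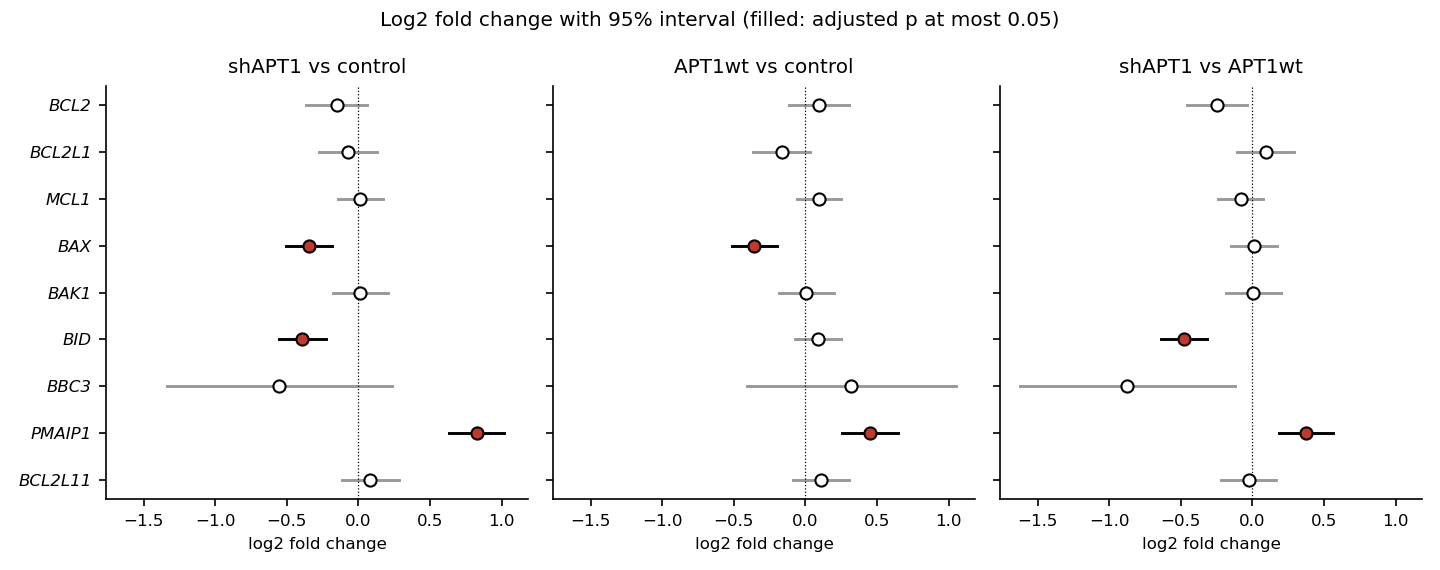
Log2 fold change (horizontal axis) of the 9 tested members in the 3 comparisons, shAPT1 over control, APT1wt over control and shAPT1 over APT1wt, with 95% intervals as lines and filled points at an adjusted p of at most 0.05. PMAIP1 is filled and right of 0 in each panel, BID is filled and left of 0 in both panels with shAPT1, and BAX is filled in both panels with control.

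The comparison of APT1wt with control asked how the family responds to excess APT1. PMAIP1 rose again and the summed reads of BAX fell, which made 2 of the 9 members tested, beside 23.4% of all 15233 genes tested. This share too is near the background. The median log2 fold change of the 9 was 0.09, against -0.0040 for all tested genes. PMAIP1 stood at 62.0, 62.8 and 67.9 TPM in APT1wt, against 46.0, 48.6 and 50.8 TPM in control, all 3 above every control library. The log2 fold change was 0.45 ± 0.09 with an adjusted p of 0.0027. The controls are the same 3 libraries as in the comparison of shAPT1 with control, so the rise of PMAIP1 in both is not independent.

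BID was not called in APT1wt. It stood at 65.4, 69.3 and 68.5 TPM, against 63.3, 61.5 and 63.6 TPM in control, with no overlap, but the log2 fold change of 0.09 ± 0.08 did not pass (adjusted p = 0.46). BCL2L1 stood at 187, 183 and 180 TPM in APT1wt, against 221, 206 and 192 TPM in control, also without overlap. Its log2 fold change was -0.17 ± 0.09 (adjusted p = 0.23). Together with PMAIP1 these made 3 of 10 members with no overlap in TPM, while 35% of all tested genes had none. MCL1 stood at 128, 131 and 124 TPM in APT1wt, against 112, 128 and 127 TPM in control, with a log2 fold change of 0.09 ± 0.07.

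BAX in APT1wt gave a log2 fold change of -0.36 ± 0.07 by summed reads (adjusted p = 0.0030). Its levels were 127, 153 and 135 TPM in APT1wt, against 158, 153 and 173 TPM in control, with APT1wt replicate 2 just above the lowest control. The length offset gave -0.21 (adjusted p = 0.21), and a limma fit of the authors' scaled gene table gave -0.21 (adjusted p = 0.22). The mean effective length was 596 ± 38 nt in APT1wt, against 659 ± 48 nt in control. The remaining tested members, BCL2, BAK1, BBC3 and BCL2L11, had log2 fold changes from 0.0060 to 0.32, none past the threshold. Of these BCL2L11 had its highest level in APT1wt replicate 2, at 15.0 TPM, beside 10.5 and 10.8 TPM in the other libraries of the group and 9.14, 11.4 and 10.4 TPM in control.

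shAPT1 and APT1wt were then compared directly, which tests whether the responses differ. PMAIP1 was higher and BID lower in shAPT1, 2 of the 9 members tested, beside 25.1% of all genes tested. These 2 of 10 members also had no overlap in TPM between the groups, with 32.9% of all tested genes meeting that criterion. For PMAIP1 the log2 fold change was 0.38 ± 0.09 (adjusted p = 0.0067), and it was 0.27 (adjusted p = 0.0089) without shAPT1 replicate 1. The lowest shAPT1 level of PMAIP1, 78.1 TPM, was above the highest APT1wt level, 67.9 TPM. For BID the log2 fold change was -0.48 ± 0.08 (adjusted p = 0.00041), with 37.1 to 55.7 TPM in shAPT1 against 65.4 to 69.3 TPM in APT1wt. BAX did not differ past the threshold, at 0.01 ± 0.07 with an interval from -0.15 to 0.17.

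Further members sat close to the threshold in the direct comparison. BBC3 gave -0.87 ± 0.35 (adjusted p = 0.085), with 11, 14 and 27 reads in shAPT1 against 34, 28 and 31 in APT1wt, and passed at -1.26 (adjusted p = 0.032) without shAPT1 replicate 3. BCL2 had -0.25 ± 0.10 (adjusted p = 0.079). Without shAPT1 replicate 1, both BCL2L1 and MCL1 passed, at 0.20 (adjusted p = 0.048) and -0.17 (adjusted p = 0.022), against 0.09 (adjusted p = 0.52) and -0.08 (adjusted p = 0.45) with all libraries.

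**Figure D3:**
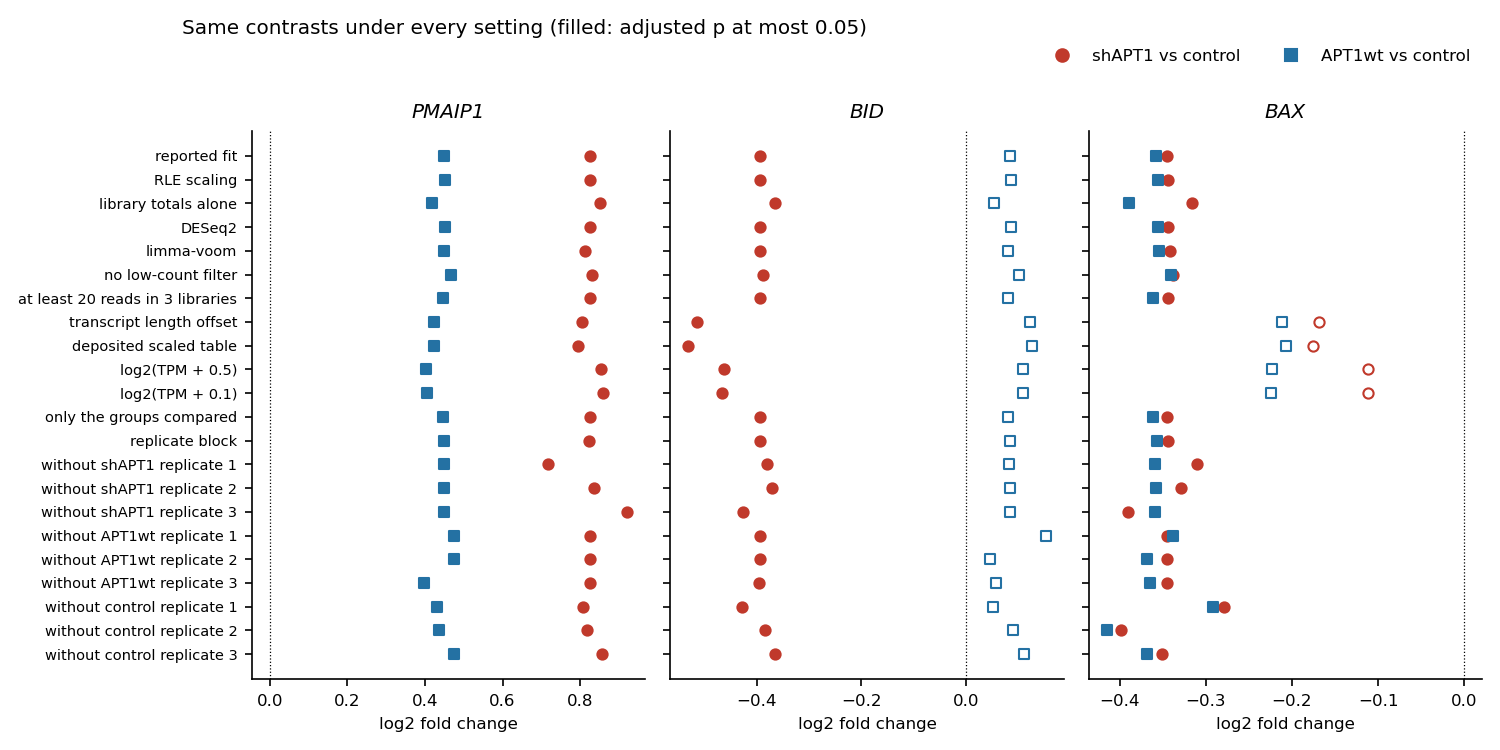
Log2 fold change (horizontal axes, each with its own range) of PMAIP1, BID and BAX in shAPT1 against control (circles) and APT1wt against control (squares) in the reported fit and under 21 other settings (rows), filled at an adjusted p of at most 0.05. PMAIP1 is filled throughout, and BID is filled throughout for shAPT1 and open throughout for APT1wt. BAX is open with the transcript length offset, in the authors' scaled table and in both TPM fits.

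The transcripts of MCL1 and BCL2L1 were examined next, because their splice forms act in opposite ways. Of 13 annotated transcripts, 4 of MCL1 and 9 of BCL2L1, 10 had enough reads to test. None passed in any of the 3 comparisons by edgeR, beside 1.62% of the 52392 transcripts tested for shAPT1 against control, 1.43% for APT1wt against control and 1.3% in the direct comparison. None had an unadjusted p under 0.05, and none passed with limma on log2(TPM + 0.5). Relative use within the gene gave 0 calls as well, and 0 at an unadjusted p under 0.05, beside 0.334%, 0.259% and 0.313% of the 47934 transcripts so tested.

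Most MCL1 RNA was assigned to the long form, ENST00000369026, whose reading frame codes for 350 residues. Its level was 126, 102 and 103 TPM in shAPT1 and 111, 112 and 111 TPM in APT1wt, against 97.0, 108 and 108 TPM in control. The short form ENST00000307940, of 271 residues, stood at 3.95, 2.97 and 5.42 TPM in shAPT1 and 3.63, 3.98 and 2.67 TPM in APT1wt, against 3.24, 4.18 and 3.20 TPM in control. Of the long and short forms together it made 3.63% ± 1.20 in shAPT1 and 2.98% ± 0.55 in APT1wt, against 3.28% ± 0.42 in control (SD, n = 3 each). The 3 groups overlapped. A 197-residue form stood at 0.422 to 4.31 TPM over the 9 libraries, and a processed transcript at 9.996 to 15.5 TPM.

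BCL2L1 RNA was spread over more transcripts. The pair that codes for the 233 residues of Bcl-xL, ENST00000307677 and ENST00000376062, made up 72.4% ± 1.2 of BCL2L1 TPM in shAPT1 and 72.3% ± 1.7 in APT1wt, against 71.7% ± 2.6 in control. The short form ENST00000376055, which codes for the 170 residues of Bcl-xS, stood at 11.2, 16.5 and 13.2 TPM in shAPT1 and 12.1, 11.2 and 10.8 TPM in APT1wt, against 12.4, 11.4 and 22.0 TPM in control. Its share of the long and short forms was 8.07%, 9.93% and 7.27% in shAPT1 and 8.04%, 7.87% and 7.77% in APT1wt, against 6.99%, 7.18% and 14.2% in control. Control replicate 3 stood far above the other libraries, and the rest lay between 6.99% and 9.93%. The log2 fold change of the short form was -0.21 in shAPT1, with a 95% interval from -0.81 to 0.40, and -0.42 in APT1wt, with an interval from -1.02 to 0.19. Both values rested on control replicate 3, and without it they were 0.15 in shAPT1 and -0.06 in APT1wt, neither passing.

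**Figure D4:**
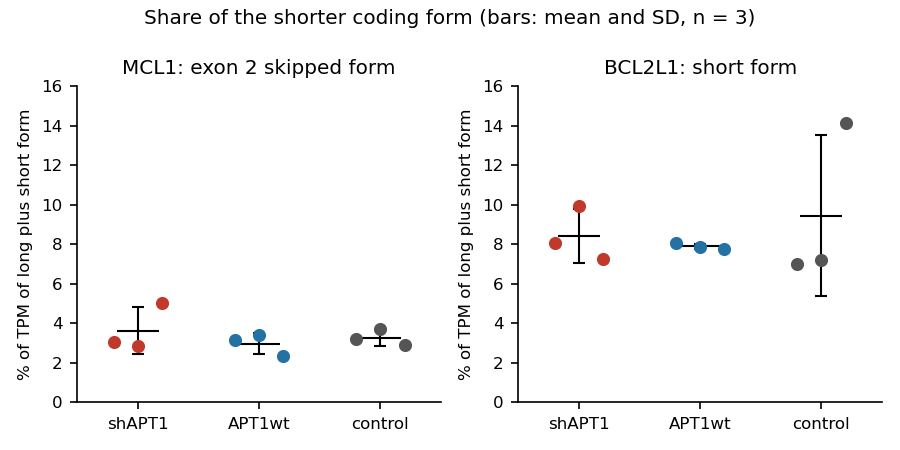
Share of the shorter coding form among the long and short forms of MCL1 (left) and BCL2L1 (right), in percent of their summed TPM, for the 3 libraries of shAPT1, APT1wt and control, with mean and SD. The MCL1 points lie between 2.36% and 5.02% and the BCL2L1 points between 6.99% and 14.2%, with the groups overlapping in both panels.

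Among the 71 transcripts of the other 8 members, 34 were tested, and those that passed are named here after their values were seen. In shAPT1 against control the main PMAIP1 transcript, ENST00000316660, passed at 0.87 ± 0.10 (adjusted p = 0.0067). It carried 93.6% ± 2.7 of PMAIP1 TPM in shAPT1 and 94.5% ± 0.9 in APT1wt, against 89.9% ± 3.0 in control. In APT1wt against control the BAX transcript ENST00000293288, of 1358 nt, passed at -0.60 ± 0.09 (adjusted p = 0.024). Its level was 42.6, 40.3 and 40.0 TPM in shAPT1 and 35.6, 36.3 and 34.1 TPM in APT1wt, against 58.7, 49.6 and 52.4 TPM in control, with the libraries of shAPT1 and APT1wt below every control library. This BAX call was lost in 6 of 9 fits that left out a library, at log2 fold changes from -0.67 to -0.50. It was also lost with the replicate number as a block (-0.60, adjusted p = 0.060) and without the filter on low counts (-0.59, adjusted p = 0.065). BAX transcripts not annotated as protein-coding made up 45.1% ± 3.1 of BAX TPM in shAPT1 and 40.3% ± 0.6 in APT1wt, against 35.5% ± 3.5 in control, a share that was not tested.

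Another 102 apoptosis genes in 7 lists place the members in their pathway, and 95 of them were tested. In shAPT1 against control 9 rose and 20 fell, with 24.4% of all tested genes called, and the median log2 fold change was -0.06. With library totals in place of TMM scaling the split was 11 higher and 15 lower. In APT1wt against control 8 rose and 19 fell, with 23.4% of all tested genes called and a median of -0.02. Between shAPT1 and APT1wt 10 were higher and 16 lower in shAPT1, with 25.1% of all tested genes called, which became 16 higher and 10 lower with library totals alone and 4 higher and 14 lower in the authors' scaled table. Of the calls, 13 of 29 in shAPT1, 13 of 27 in APT1wt and 13 of 26 between them held with each library left out in turn, and the genes said below to have risen or fallen are among these unless another value is given. Over all the other settings as well, 10 of 29, 10 of 27 and 9 of 26 calls held. Of the calls named below that held with each library left out, those of FOXO1 in APT1wt, RRM2B in shAPT1 and AIFM1 between the groups were lost with the transcript length offset, in the authors' scaled table and in both TPM fits. The calls of ZMAT3 and TNFRSF10B in shAPT1, FBXW7 in APT1wt, and BMF and STAT3 between the groups were lost in both TPM fits. Without shAPT1 replicate 1 the list genes split into 8 higher and 26 lower in shAPT1 and 13 higher and 25 lower in APT1wt, each against control, and 10 higher and 24 lower between shAPT1 and APT1wt. In that fit 3864, 4825 and 4104 of all 15664 genes tested were called in these comparisons. IL6 and CXCL8, by which replicate 1 was picked, are among the list genes, so these splits are not an independent check.

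Further BCL2 family genes showed 1 gene up and 1 down among 7 tested in each comparison with control, and 0 up and 1 down in shAPT1 without its replicate 1. BIK, a BH3-only gene whose product sits at the endoplasmic reticulum, fell to 0.739, 1.16 and 1.12 TPM in shAPT1, against 2.81, 4.05 and 4.45 TPM in control (log2 fold change -1.93 ± 0.33, adjusted p = 6.9e-04). In APT1wt BIK stood at 1.88, 2.70 and 1.47 TPM and its log2 fold change of -0.92 ± 0.30 (adjusted p = 0.036) was lost in 4 of 9 fits that left out a library. The BH3-only gene BMF differed between shAPT1 and APT1wt, with 0.206, 1.14 and 0.533 TPM in shAPT1 against 0.777, 3.03 and 2.62 TPM in APT1wt (-1.64 ± 0.37, adjusted p = 0.0050). Against control its rise in APT1wt (1.04 ± 0.36, adjusted p = 0.047) was lost in 7 of 9 fits that left out a library. BCL2L13, a mitochondrial family member, gave 0.26 ± 0.09 in shAPT1 (adjusted p = 0.044), a call that was lost in 7 of 9 fits that left out a library. BCL2L2, BAD and BOK did not pass in either comparison with control: their mean levels were 14.8 ± 0.2, 60.1 ± 9.9 and 17.0 ± 3.3 TPM in shAPT1 and 15.1 ± 1.0, 64.3 ± 5.6 and 18.0 ± 2.0 TPM in APT1wt, against 14.7 ± 1.3, 66.1 ± 2.7 and 19.0 ± 0.9 TPM in control.

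Downstream of the mitochondria, 2 of 16 genes of the apoptosome and the caspases rose and 3 fell in shAPT1, and 0 rose and 6 fell in APT1wt. By DESeq2 and limma-voom none rose in APT1wt either. The mitochondrial protease gene HTRA2, whose product is released through BAX and BAK1 pores, fell in APT1wt (-0.52 ± 0.09, adjusted p = 5.3e-04), with 28.4 ± 0.6 TPM against 40.8 ± 1.9 TPM in control. ENDOG, which encodes a mitochondrial nuclease, fell in APT1wt as well (-0.75 ± 0.17, adjusted p = 0.0059), as did the executioner caspase gene CASP6 (-0.51 ± 0.11, adjusted p = 0.0031). In shAPT1 HTRA2, ENDOG and CASP2 were called lower, at -0.28, -0.50 and -0.24, and DIABLO higher, at 0.22, but each of these calls was lost when at least 1 library was left out. Between shAPT1 and APT1wt, AIFM1, which encodes a mitochondrial flavoprotein, was higher in shAPT1, at 0.31 ± 0.07 (adjusted p = 0.0057). Among 6 tested inhibitors of apoptosis 0 passed in shAPT1 by edgeR, DESeq2 and limma-voom, and 0 had an unadjusted p under 0.05, although 3 fell in the fit without shAPT1 replicate 1. In APT1wt XIAP, whose product blocks caspases, was called at -0.37 ± 0.11 (adjusted p = 0.020), in 5 of 9 fits that left out a library.

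Of the death receptor genes, which act upstream of BID, 2 of 13 rose and 2 fell in shAPT1, and 1 rose and 1 fell in APT1wt. TNFSF10, the gene of the ligand TRAIL, rose to 10.8, 9.40 and 7.998 TPM in shAPT1, against 4.44, 4.90 and 4.17 TPM in control (1.09 ± 0.19, adjusted p = 7.8e-04). The decoy receptor gene TNFRSF10D rose in both groups, at 17.3 ± 0.6 TPM in shAPT1 (0.35 ± 0.07, adjusted p = 0.0023) and 19.0 ± 1.2 TPM in APT1wt (0.57 ± 0.07, adjusted p = 4.6e-05), against 12.9 ± 0.3 TPM in control. The TRAIL receptor gene TNFRSF10B fell in shAPT1 (-0.25 ± 0.06, adjusted p = 0.0053), and its call in APT1wt at -0.19 held in 4 of 9 fits that left out a library. CFLAR, which encodes an inhibitor of caspase-8, was called in shAPT1 at -0.29, in 1 of 9 such fits.

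PMAIP1 and BBC3 are known p53 targets, and MDA-MB-231 cells carry a mutant p53. Of 20 other p53 target genes, 2 rose and 3 fell in shAPT1, and 0 rose and 3 fell in APT1wt. CDKN1A, the gene of the cell cycle inhibitor p21, fell to 37.7, 23.5 and 28.8 TPM in shAPT1 and to 43.2, 40.1 and 35.9 TPM in APT1wt, against 51.9, 63.3 and 63.8 TPM in control, with neither group overlapping control. Its log2 fold change was -1.02 ± 0.13 in shAPT1 (adjusted p = 7.0e-05) and -0.59 ± 0.13 in APT1wt (adjusted p = 0.0044). The DNA repair gene RRM2B and the RNA-binding gene ZMAT3 rose in shAPT1, at 0.34 ± 0.08 (adjusted p = 0.0061) and 0.46 ± 0.11 (adjusted p = 0.0077). CDKN1A stood lower in both groups in which PMAIP1 stood higher, while RRM2B and ZMAT3 stood higher in shAPT1. Both comparisons share the same controls, and a part of p53 in these changes was not tested.

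A list of 21 tested genes held regulators of MCL1 and BIM together with stress-response genes and genes of mitochondrial fission and fusion, and 2 of them rose and 4 fell in shAPT1, and 4 rose and 5 fell in APT1wt. TPT1, whose product is known to stabilise MCL1, rose in APT1wt (0.84 ± 0.07, adjusted p = 1.1e-06), at 2959, 3103 and 3155 TPM against 1781, 1646 and 1741 TPM in control. The ubiquitin ligase genes FBXW7 and HUWE1, whose products mark MCL1 for degradation, fell in APT1wt, at -0.43 ± 0.09 (adjusted p = 0.0041) and -0.40 ± 0.10 (adjusted p = 0.0078). USP9X, whose product removes ubiquitin from MCL1, was called lower in APT1wt as well (-0.21 ± 0.06, adjusted p = 0.028), in 5 of 9 fits that left out a library, and the ligase gene BTRC gave -0.04 ± 0.08 (adjusted p = 0.75). FOXO1, a transcription factor gene, stood at 3.41, 8.001 and 3.31 TPM in APT1wt, against 1.36, 4.96 and 1.58 TPM in control, and passed at 1.17 ± 0.15 (adjusted p = 6.2e-05) although the groups overlapped. E2F1 fell in APT1wt (-0.41 ± 0.07, adjusted p = 0.0012). MFN2, a mitochondrial fusion gene, was called in APT1wt at 0.20 ± 0.06 (adjusted p = 0.034), in 2 of 9 fits that left out a library. STAT3 was lower in shAPT1 than in APT1wt (-0.37 ± 0.07, adjusted p = 0.0011). YWHAZ, a 14-3-3 gene, rose in both shAPT1 (0.25 ± 0.06, adjusted p = 0.0071) and APT1wt (0.41 ± 0.06, adjusted p = 1.8e-04).

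NF-kappaB drives BCL2A1 and BCL2L1 in many cells, and of 16 tested NF-kappaB target genes 0 rose and 9 fell in shAPT1, with a median log2 fold change of -0.48. Of all genes tested 12.8% rose and 11.6% fell in this comparison. DESeq2 called 8 lower and limma-voom 11, and neither called any higher. Without shAPT1 replicate 1, the library with high IL6 and CXCL8, 14 of the 16 fell and the median was -0.69, while 1861 of all 15664 genes tested fell. That library was picked by IL6 and CXCL8, which are on this list. Leaving it out therefore lowers the list in part by construction, and the larger fall adds no support. NFKBIA, the gene of the inhibitor of NF-kappaB, stood at 82.9, 50.4 and 51.6 TPM in shAPT1, against 89.6, 97.1 and 112 TPM in control (-0.78 ± 0.14, adjusted p = 0.0010). IER3, an early survival gene, stood at 441, 329 and 337 TPM in shAPT1, against 655, 600 and 595 TPM in control (-0.81 ± 0.09, adjusted p = 2.6e-05). In APT1wt the list was split, with 2 up and 3 down and a median of -0.16, and with 5 up and 8 down when shAPT1 replicate 1 was left out of the fit. Of all genes tested 11.8% rose and 11.6% fell in APT1wt. Without that library 2434 of all 15664 genes tested rose and 2391 fell. RELB, an NF-kappaB subunit gene, fell in APT1wt (-0.54 ± 0.10, adjusted p = 0.0010). The chemokine gene CXCL1 was lower in shAPT1 than in APT1wt (-2.27 ± 0.54, adjusted p = 0.0070), with a range from -4.06 to -1.79 when libraries were left out. CXCL8 was called in shAPT1 at -1.48 ± 0.47 (adjusted p = 0.033), in 4 of 9 fits that left out a library, and reached -2.88 in the lowest of them.

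**Figure D5:**
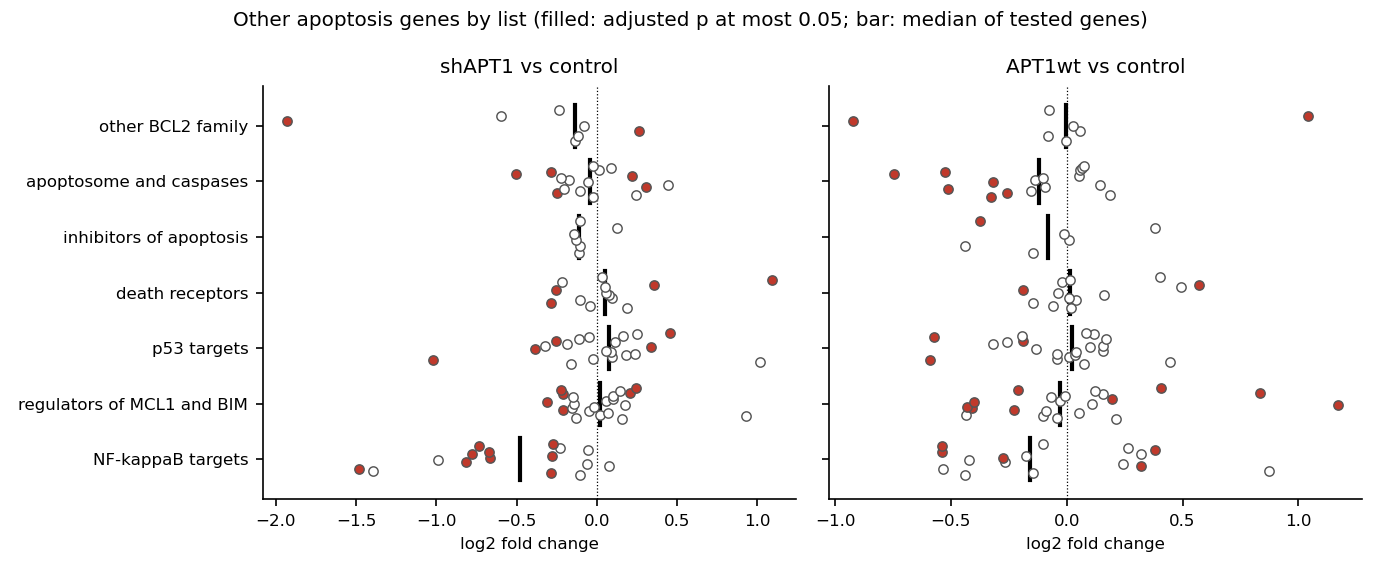
Log2 fold change (horizontal axes, each with its own range) of every tested gene in the 7 lists of other apoptosis genes, in shAPT1 against control (left) and APT1wt against control (right), with filled points at an adjusted p of at most 0.05 and a bar at the median of each list. The NF-kappaB targets have the lowest median in shAPT1, -0.48, and the remaining medians there lie between -0.13 and 0.07.

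Lastly, the genes whose level across the 9 libraries was most like that of each called member were taken from 9848 protein-coding genes with a mean of at least 5 TPM, by Pearson correlation of log2(TPM + 0.5). For PMAIP1 they were TRAM1, TGFB2 and ME2, with r of 0.995, 0.988 and 0.987. For BID they were UHRF1, RPLP1 and SLC9A3R2, with r of 0.977, 0.974 and 0.974. For BAX they were TMEM115, MVB12A and MAPK8IP1, with r of 0.945, 0.934 and 0.920. These describe 9 points that fall into 3 groups and share library depth, and say nothing of shared control.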

How the data were processed

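RNA was sequenced from 9 libraries. Per the submitters' processing notes, the authors used FastQC, Salmon, DESeq2 and the build GRCh38.p10; versions, trimming and the strand setting are not given in the sources used here. The deposited Salmon tables hold estimated counts, TPM and lengths per transcript, and the authors also deposited a gene table of signal scaled between libraries by a method not given in the sources used here. Estimated counts were summed per gene and rounded. edgeR 4.0.16 in R 4.3.3 (filterByExpr, TMM, quasi-likelihood test over all 9 libraries) gave Benjamini-Hochberg adjusted p-values over 15233 genes, and diffSpliceDGE gave the relative use of transcripts. Alternatives used DESeq2 1.42.0 and limma 3.58.1. The procedures were tested on simulated data. Transcript coordinates come from GENCODE 29. Counting intervals and floors of 3 reads cover counting error only. From each list the 3 called genes with the largest change in each direction and at least 1 TPM were eligible for naming; of these, calls that did not hold were named in part. Deviations from the group mean correlated from 0.214 to 0.332 between same-numbered APT1wt and control libraries, and from -0.244 to 0.114 between those with different numbers. The numbers may therefore pair these groups, but shAPT1 replicate 3 and APT1wt replicate 2 also reached 0.331. The reported fits used the group alone, and the fit with the replicate number as a block applied it to all 3 groups. Same-numbered libraries correlated from -0.116 to 0.237 with shAPT1, and the numbers were not taken to pair the other comparisons. The members and lists were chosen with earlier results of these data known.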

Additional observations from a re-analysis of the deposited data

How the results depend on the processing

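PMAIP1 passed in all 3 comparisons, and BID in both that involve shAPT1, under each of the 21 other settings. With libraries left out, the log2 fold change of PMAIP1 ranged from 0.72 to 0.92 in shAPT1 against control, 0.40 to 0.48 in APT1wt against control and 0.27 to 0.47 in shAPT1 against APT1wt. BAX lost its call against control in the transcript length offset, the authors' scaled table and both TPM fits, so the members called in APT1wt fell to 1 in these 4 settings. Between shAPT1 and APT1wt 4 members were called without the filter on low counts, with BCL2A1 and BBC3 added, and 2 to 4 with a library left out, 4 being without shAPT1 replicate 1. The other apoptosis genes called in shAPT1 numbered 15 with the length offset, 18 in the scaled table and 13 in both TPM fits, and 16 to 34 with a library left out. All genes called fell too, from 3719 in the reported fit to 2307, 2326, 2062 and 2055 in these 4 settings. With a library left out they numbered 2616 to 4096. In APT1wt the other apoptosis genes called numbered 17, 17, 12 and 12 in these settings, and 15 to 38 with a library left out. All genes called there went from 3568 to 2230, 2236, 1906 and 1899, and ranged from 2298 to 4825 with a library left out. Between the groups both TPM fits gave 13, and leaving out a library gave 15 to 34. All genes called there went from 3829 to 2107 and 2102 in the TPM fits, and ranged from 2573 to 4104 with a library left out. Signs of members that did not pass turned as follows, and the cause was not tested. BCL2 in shAPT1 against control went to 0.098 with the length offset, 0.092 in the scaled table, and 0.14 and 0.15 with TPM; for shAPT1 over APT1wt it went to 0.057, 0.057, 0.13 and 0.14. BAK1 for APT1wt over control went to -0.026 with library totals and -0.0036 and -0.0037 with TPM, and for shAPT1 over APT1wt to -0.0026 without the filter and -0.0025 in the scaled table. MCL1 between shAPT1 and APT1wt went to 0.028 in both TPM fits, and BCL2L11 to 0.032 with library totals. With a library left out the values ranged for shAPT1 over control from -0.1428 to 0.0368 for BCL2L1, -0.0802 to 0.0732 for MCL1 and -0.0823 to 0.0806 for BAK1, for APT1wt over control from -0.041 to 0.0674 for BAK1, and for shAPT1 over APT1wt from -0.0318 to 0.0488 for BAX, -0.0867 to 0.0749 for BAK1 and -0.1164 to 0.0382 for BCL2L11. Among the members and the genes named, the replicate block changed no other call in APT1wt against control than that of the BAX transcript, except that IER3 then passed. With the replicate number as a block 3 members were called for shAPT1 over control, 2 for APT1wt over control and 2 in the direct comparison, the same counts as without it.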
